A study of Mus musculus with 14 samples.

Results

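The genes described here are 35 interferon-responsive genes, taken from a given list of symbols and matched by symbol in a table of 24015 genes from mouse embryonic fibroblasts. All 35 were in the table, and all 35 passed the filter on low counts, which left 15666 genes. They comprise 4 transcriptional regulators, 5 nucleic acid sensors, 18 antiviral effectors, 4 GTPases and 4 antigen-processing genes.

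The series asks how loss of SirT7, a sirtuin that uses NAD, bears on the response of fibroblasts to glucose starvation. Total RNA was sequenced in 14 libraries from fibroblasts of strain 129s2, prepared from embryos of day 14.5 and used at passages 3 to 4. Wild-type cells were kept for 18 hours in normal medium (WT-NT, n = 4) or in medium without glucose (WT-GS, n = 3), and SirT7-/- cells likewise (KO-NT, n = 4, and KO-GS, n = 3). The labels name no interferon, virus or other stimulus. Nor do they tell if the replicates came from different cultures or embryos, and p-values measure the spread between these libraries, which may be technical.

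Interferons are secreted proteins that cells release on sensing viral nucleic acid. Type I interferon acts through the kinases JAK1 and TYK2 to form a complex that includes STAT2 and IRF9 and binds the interferon-stimulated response element (ISRE) in promoters. Interferon gamma acts at the gamma-activated site (GAS) and through IRF1. Fibroblasts respond to both and hold a low level of many of these genes without added interferon.

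Promoters from RefSeq (build GRCm38.p6, 250 bases before to 50 after the gene start) were found for 28 of the 35 genes. Apol6, Dhx58, Mx1, Mx2, Rtp4, Usp18 and Zbp1 had no entry. An ISRE-like core, GAAANNGAAA on either strand, was in a promoter of 14 of the 28 genes (50%). The background was 3.62% of the genes tested that had an entry, and 3.44% of all 32851 promoters. A GAS-like palindrome, TTCNNNGAA, was in a promoter of 6 of the 28 genes (21.4%), against 8.41% of such genes and 8.3% of promoters. Bst2, Ifitm3 and Igtp held both; in Bst2 and Ifitm3 the matches to the different motifs overlap. Of a second list, 80 other interferon-responsive genes, 59 had a promoter, and 39% of these held the ISRE-like core and 18.6% the GAS-like one. A match describes letters only.

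The 150 bases before the gene start are printed for 6 genes with such matches, because they show the motif forms in genes that moved with starvation (Rsad2, Ifitm2, Irf1 and Psmb8) and in others that did not pass the test (Isg15 and Ifit1). Capitals mark the matches. Each is read 5′ to 3′ on the gene's strand, from RefSeq, build GRCm38.p6.
Isg15, chr4:156200819-156200968, minus strand, 3 overlapping ISRE-like matches: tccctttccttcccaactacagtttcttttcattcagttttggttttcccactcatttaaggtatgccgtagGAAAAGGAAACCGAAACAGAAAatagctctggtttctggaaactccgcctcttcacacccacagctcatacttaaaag
Ifit1, chr19:34640739-34640888, plus strand, 2 ISRE-like matches: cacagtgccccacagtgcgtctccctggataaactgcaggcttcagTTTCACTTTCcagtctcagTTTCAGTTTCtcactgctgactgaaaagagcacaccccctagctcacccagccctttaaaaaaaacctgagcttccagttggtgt
Rsad2, chr12:26456453-26456602, minus strand, ISRE-like: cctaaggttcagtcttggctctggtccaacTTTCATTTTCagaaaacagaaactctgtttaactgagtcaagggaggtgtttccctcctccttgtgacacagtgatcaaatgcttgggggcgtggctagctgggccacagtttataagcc
Ifitm2, chr7:140955962-140956111, minus strand, ISRE-like: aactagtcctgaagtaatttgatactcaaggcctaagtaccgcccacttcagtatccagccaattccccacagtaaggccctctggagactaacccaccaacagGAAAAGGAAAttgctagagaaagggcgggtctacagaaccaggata
Irf1, chr11:53769864-53770013, plus strand, GAS-like, from an entry that is 1 of 2 for this gene: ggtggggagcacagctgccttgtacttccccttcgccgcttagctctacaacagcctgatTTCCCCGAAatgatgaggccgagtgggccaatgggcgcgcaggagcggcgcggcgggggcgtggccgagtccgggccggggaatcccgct
Psmb8, chr17:34198045-34198194, plus strand, GAS-like: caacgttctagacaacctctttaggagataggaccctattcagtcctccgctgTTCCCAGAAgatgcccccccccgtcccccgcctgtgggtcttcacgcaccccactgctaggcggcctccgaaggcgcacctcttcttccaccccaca

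Library totals ran from 59788270 to 91607861 counts, so that 3 counts, taken as the limit that a count of 0 allows, correspond to at most 0.0502 CPM (counts per 1000000 counts of the same library). This covers counting error only. Sirt7 lay at 16.9 to 23.1 CPM in the wild-type libraries and at 0.301 to 1.41 CPM in those labelled SirT7-/-. The medium label was not borne out in 2 libraries. Hspa5, a chaperone gene induced by glucose starvation, was at 6333 CPM in the library labelled KO-NT 4 and at 1066 CPM in the library labelled KO-GS 3, against 1437 to 1556 in KO-NT 1 to 3 and 5654 to 6251 in KO-GS 1 and 2. On a scale over the genes called for starvation in wild type, where the WT-NT mean is 0 and the WT-GS mean is 1, KO-NT 4 lay at 0.877 and KO-GS 3 at 0.161. Each comparison that uses these libraries is given with and without them; since an earlier look at these data singled them out by this placement, starvation calls without them are partly set by that choice. The fibroblast label was borne out: the 10 fibroblast markers, such as Col1a1 and Pdgfra, summed to at least 10007 CPM in every library.

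**Figure D1:**
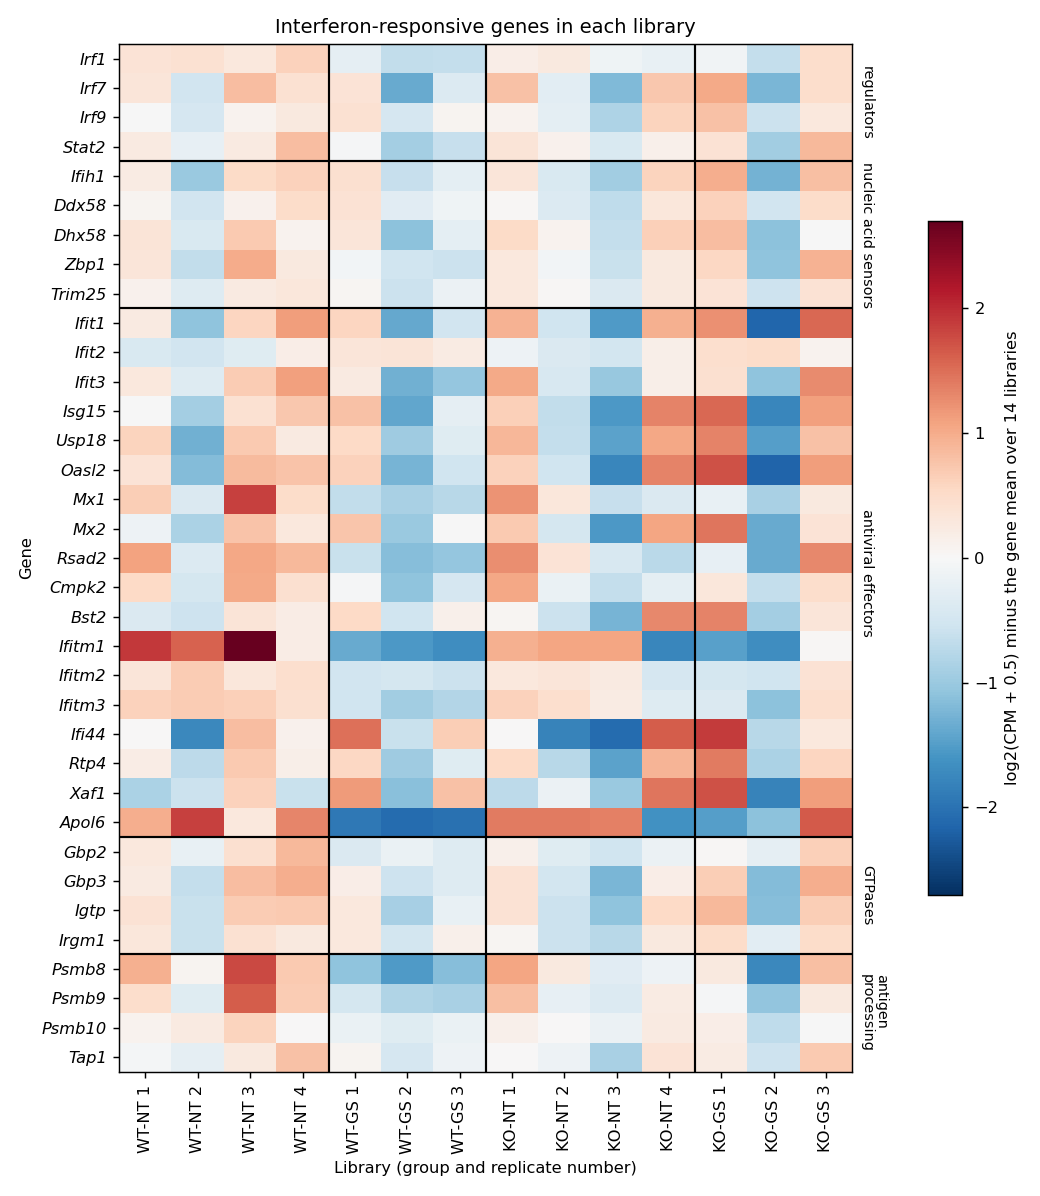
Level of each of the 35 genes (rows, grouped by role) in each of the 14 libraries (columns, grouped by genotype and medium), as log2(CPM + 0.5) minus the gene's mean over the 14 libraries. Apol6 and Ifitm1 are low in all 3 WT-GS libraries, in KO-GS 1 and 2 and in the library labelled KO-NT 4, while most other rows follow single libraries, with WT-GS 2, KO-NT 3 and KO-GS 2 low.

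The first comparison asks which of these genes changed in wild-type fibroblasts without glucose. Calling required an adjusted p below 0.05 (edgeR's quasi-likelihood test, Benjamini-Hochberg adjustment over all genes tested), and log2 changes are starved minus normal medium. Of the 35 genes, 10 were called (32.6% of all genes tested were), with 9 lower and 1 higher, where the background was 15.4% lower and 17.2% higher. The called genes were Irf1 among regulators, 7 of the 18 effectors (Apol6, Mx1, Ifitm1, Rsad2, Ifitm3 and Ifitm2 lower, Ifit2 higher), and the immunoproteasome genes Psmb8 and Psmb9. None of the 5 sensors or 4 GTPases passed the test. In 11 of the 35 the groups did not overlap (44.6% of all genes tested), namely the 10 called and Psmb10. The median change of the 35 was -0.57, against -0.02 for all genes tested, and 28 of the 35 had a negative value. Leaving out WT-GS 3 left 6 called genes of the 35 and 2790 of all 15666 genes tested, against 5107 with all libraries. The median was -0.94 without WT-GS 1 and -0.26 without WT-GS 2. Macrophage markers, summed over 18 genes, ran from 402 to 2791 CPM in WT-NT and from 19.4 to 471 CPM in WT-GS, and fibroblast markers from 31667 to 39248 CPM and from 11004 to 12197 CPM. In these bulk samples fewer cells of a type and less RNA per cell cannot be told apart, and the part of either in the changes below was not tested.

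Irf1 encodes a transcription factor that interferon gamma induces and that itself drives antigen-processing genes. It was at 24.5, 25.3, 23.1 and 29.5 CPM in WT-NT 1 to 4 and at 15.8, 11.7 and 11.9 CPM in WT-GS 1 to 3. Every starved library was below every library in normal medium. The log2 change was -0.90 (SE 0.138, adjusted p = 0.00288, edgeR). The other regulators were not called: Stat2, a subunit of the type I complex, had a change of -0.74 (SE 0.275, adjusted p = 0.0722, edgeR), Irf7, which drives interferon genes, -0.61, and Irf9, the DNA-binding subunit of that complex, 0.12. Stat2 ranged from 48.4 to 102 CPM in normal medium and from 29.9 to 55.1 CPM without glucose, so the groups overlapped.

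Apol6, an apolipoprotein L family gene, had the most negative change of the list. Its level was 4.69, 8.98, 2.67 and 6.06 CPM in WT-NT and 0.189, 0.117 and 0.152 CPM in WT-GS. Both groups are far apart and the starved libraries close together; the log2 change was -5.11 (SE 0.507, adjusted p = 0.000532, edgeR).

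The Ifitm genes encode small membrane proteins that block the entry of enveloped viruses. Ifitm1 was at 8.68, 6.86, 15.3 and 2.30 CPM in WT-NT and at 0.460, 0.335 and 0.270 CPM in WT-GS, a log2 change of -4.48 (SE 0.671, adjusted p = 0.00265, edgeR). Ifitm3 was at 236, 246, 237 and 206 CPM and at 106, 79.1 and 87.6 CPM, a change of -1.29 (SE 0.124, adjusted p = 0.000476, edgeR). Ifitm2 was at 136, 176, 133 and 149 CPM and at 76.2, 78.1 and 72.3 CPM, a change of -0.92 (SE 0.115, adjusted p = 0.00127, edgeR). In each of the 3 genes the groups did not overlap. These genes are near-identical copies in part, so reads may have been split among them and their separate values are uncertain.

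Mx1, a dynamin-like GTPase that blocks viral replication, was low throughout. It was at 0.971, 0.202, 2.82 and 0.801 CPM in WT-NT and at 0.0825, 0 and 0.0469 CPM in WT-GS, where the counts behind these values were 7, 0 and 4. The log2 change was -4.60 (SE 1.12, adjusted p = 0.0181, edgeR), and leaving out single libraries moved it between -5.39 and -3.75. The call was lost without any single WT-GS library and with limma-voom, at an adjusted p of up to 0.106. Mx1 also shares sequence with its paralog Mx2, whose change was 0.01 (adjusted p = 0.995, edgeR).

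Rsad2 encodes viperin, an enzyme that makes a chain-terminating nucleotide. Its levels were 2.23, 0.494, 2.16 and 1.86 CPM in WT-NT and 0.354, 0.0836 and 0.129 CPM in WT-GS. The groups did not overlap, with WT-NT 2 the closest to the starved libraries, and the log2 change was -3.06 (SE 0.694, adjusted p = 0.0136, edgeR). The call was lost without WT-GS 3, with limma-voom and in a fit on all 14 libraries (adjusted p up to 0.0838).

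Psmb8 and Psmb9 encode catalytic subunits that replace their constitutive counterparts, Psmb5 and Psmb6, in the immunoproteasome, which cuts peptides for presentation. Psmb8 was at 8.30, 4.24, 14.9 and 6.85 CPM in WT-NT and at 1.62, 1.05 and 1.54 CPM in WT-GS, a log2 change of -2.55 (SE 0.437, adjusted p = 0.00461, edgeR). Psmb9 was at 1.33, 0.550, 3.59 and 1.61 CPM and at 0.448, 0.251 and 0.211 CPM, a change of -2.47 (SE 0.653, adjusted p = 0.0243, edgeR). Neither gene overlapped between the groups. The Psmb9 call was lost without any single WT-GS library and with limma-voom (adjusted p up to 0.0926). The last catalytic subunit, Psmb10, had a change of -0.44 (SE 0.161, adjusted p = 0.0715, edgeR), and its groups did not overlap either. Tap1, which carries peptides into the endoplasmic reticulum, had a change of -0.35 with overlapping groups.

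The constitutive counterparts were not called: the log2 change was -0.24 for Psmb5, -0.31 for Psmb6 and -0.03 for Psmb7, the counterpart of Psmb10. The log2 ratio of Psmb8 to Psmb5 counts, taken within a library, ran from -4.13 to -1.95 in WT-NT and from -5.48 to -4.83 in WT-GS, with no overlap. For Psmb9 to Psmb6 it ran from -7.90 to -4.67 and from -8.51 to -7.48, so that WT-NT 2 lay within the starved range.

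Ifit2, whose protein binds viral RNA and promotes cell death, was the gene that rose. It was at 17.1, 15.9, 18.1 and 26.1 CPM in WT-NT and at 29.0, 29.3 and 26.8 CPM in WT-GS, a log2 change of 0.62 (SE 0.160, adjusted p = 0.0223, edgeR). WT-NT 4 lay just below the lowest starved library, and the groups did not overlap. The call was lost without WT-NT 1, WT-NT 3 or any single WT-GS library, at an adjusted p of up to 0.0835. Its family members Ifit1 and Ifit3 had changes of -0.61 and -1.11 and were not called; family members resemble each other in sequence, so these values are uncertain.

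The remaining effectors were not called. Isg15, the ubiquitin-like modifier, was at 7.14 to 23.3 CPM in WT-NT and 4.98 to 24.6 CPM in WT-GS, and its log2 change was -0.13 (SE 0.544, adjusted p = 0.875, edgeR). Usp18, which removes Isg15 from proteins, had a change of -0.33, Rtp4, a chaperone of receptor transport, -0.26, Oasl2, an oligoadenylate synthetase-like gene, -0.57, and Cmpk2, a mitochondrial nucleotide kinase, -1.43. Bst2 (tetherin, which holds budding virus at the cell surface), Ifi44 and Xaf1 had positive values of 0.23, 0.77 and 0.87. Each of these ranges overlapped between the media.

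The sensors Ddx58 (RIG-I) and Ifih1 (MDA5), which detect viral RNA in the cytosol, had changes of 0.00 and -0.24. Dhx58, a regulator of both, had -0.47, Trim25, a ubiquitin ligase acting on RIG-I, -0.24, and Zbp1, a sensor of Z-form nucleic acid, -1.18. Among the GTPases, Gbp2 and Gbp3, guanylate-binding proteins that coat intracellular pathogens, had -0.67 and -0.69, and the immunity-related GTPases Igtp and Irgm1 -0.55 and -0.07. Adjusted p values in these 2 groups ran upward from 0.0649 (Gbp2, edgeR). Gbp2 and Gbp3 are paralogs and may share reads.

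**Figure D2:**
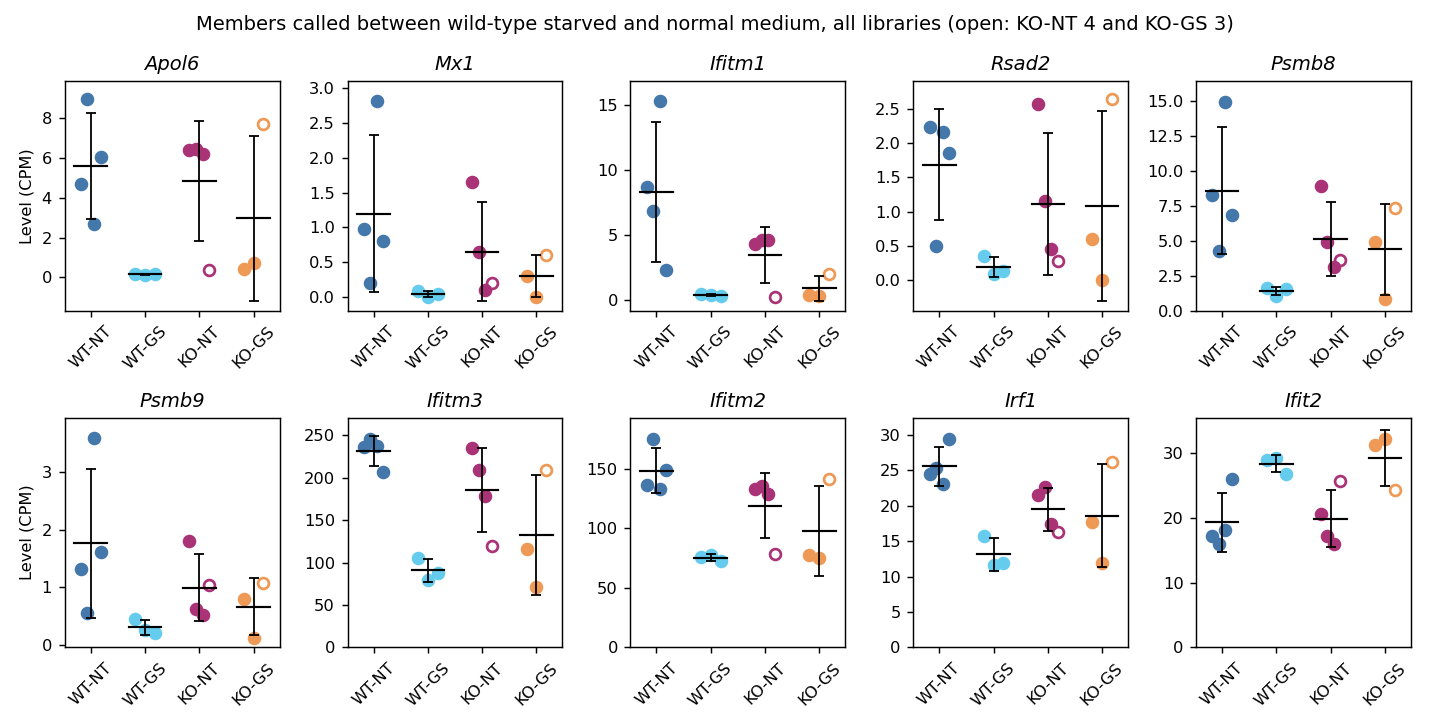
Level (CPM, linear axis) of the 10 genes called between WT-GS and WT-NT in each library, with the mean (line) ± SD (bars) of each labelled group; open points are KO-NT 4 and KO-GS 3. Apol6, Ifitm1 and Ifitm2 in KO-NT 4 lie with the starved libraries, Apol6 and Ifitm2 in KO-GS 3 lie with those in normal medium, and Ifit2 is the one panel in which the starved wild-type libraries are high.

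The next comparison asks the same of SirT7-/- cells, with libraries not used above. With the groups as labelled, 0 of the 35 genes were called, as were 0% of all genes tested. At an unadjusted p under 0.05 there were 1 of the 35 (Ifit2) and 2267 of all genes tested; DESeq2 called 0 of the 35 and 626 of all genes, and limma-voom called 0 of either. The median change of the 35 was 0.30, against 0.02 for all genes. Leaving out KO-NT 4 and KO-GS 3, 5 of the 35 were called (38.4% of all genes tested were): Ifitm1, Apol6, Ifitm3 and Ifitm2 lower (background 18.3%) and Ifit2 higher (background 20.1%). The median was then 0.15, against 0.01 for all genes.

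Apol6 was at 6.38, 6.44, 6.20 and 0.349 CPM in the KO-NT libraries 1 to 4, and at 0.438, 0.712 and 7.73 CPM in the KO-GS libraries 1 to 3. KO-NT 4 and KO-GS 3 each lie with the opposite medium. The log2 change was -0.72 (SE 1.21, adjusted p = 0.77, edgeR) with all libraries and -3.48 (SE 0.285, adjusted p = 0.00196, edgeR) without the pair.

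Ifitm1 was at 4.29, 4.60, 4.62 and 0.218 CPM in KO-NT and at 0.388, 0.269 and 1.99 CPM in KO-GS, in the same order. KO-NT 4 again lay with the starved libraries, and KO-GS 3 lay between the groups. The change was -1.97 (SE 1.10, adjusted p = 0.425, edgeR) with all libraries and -3.79 (SE 0.250, adjusted p = 0.0014, edgeR) without the pair.

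Ifitm2 was at 133, 136, 129 and 78.8 CPM in KO-NT and at 77.7, 74.8 and 141 CPM in KO-GS; the change moved from -0.30 to -0.82 (SE 0.0545, adjusted p = 0.0014, edgeR) without the pair. Ifitm3 was at 234, 209, 178 and 119.6 CPM and at 116, 71.1 and 209.5 CPM, and moved from -0.51 to -1.18 (SE 0.228, adjusted p = 0.0149, edgeR). Ifit2 was at 20.6, 17.2, 16.0 and 25.7 CPM and at 31.3, 32.2 and 24.3 CPM, and moved from 0.54 to 0.80 (SE 0.121, adjusted p = 0.00703, edgeR). In Ifitm2 the libraries KO-NT 4 and KO-GS 3 lay with the opposite medium, in Ifitm3 KO-NT 4 lay close to KO-GS 1 and KO-GS 3 within the range of KO-NT 1 to 3, and in Ifit2 both lay between the groups. Groups did not overlap in these 5 genes without the pair, where 64% of all genes tested had no overlap.

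The other 5 genes called in wild type were not called in SirT7-/- cells, with or without the pair. Without it, the changes were -0.50 for Irf1 (SE 0.200, adjusted p = 0.108, edgeR), -0.99 for Psmb8 (SE 0.815), -1.11 for Psmb9 (SE 0.931), -2.21 for Rsad2 (SE 1.46) and -2.38 for Mx1 (SE 1.60). All 5 values are negative, as in wild type, but KO-GS 1 and KO-GS 2 differed from each other. Psmb8 was at 4.93 CPM in KO-GS 1 and 0.854 CPM in KO-GS 2, against 8.90, 4.88 and 3.14 CPM in KO-NT 1 to 3. Over the 25 genes called in neither genotype the values ran from -0.57 (Cmpk2) to 2.11. The highest was that of Ifi44, 2.11 (SE 0.998, adjusted p = 0.157, edgeR), with 55.5 CPM in KO-GS 1 and 8.54 CPM in KO-GS 2. Of the constitutive subunits, Psmb5 and Psmb6 fell without the pair, by 0.49 and 0.45 on the log2 scale (adjusted p = 0.00581 and 0.00635, edgeR), and Psmb7 was not called.

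**Figure D3:**
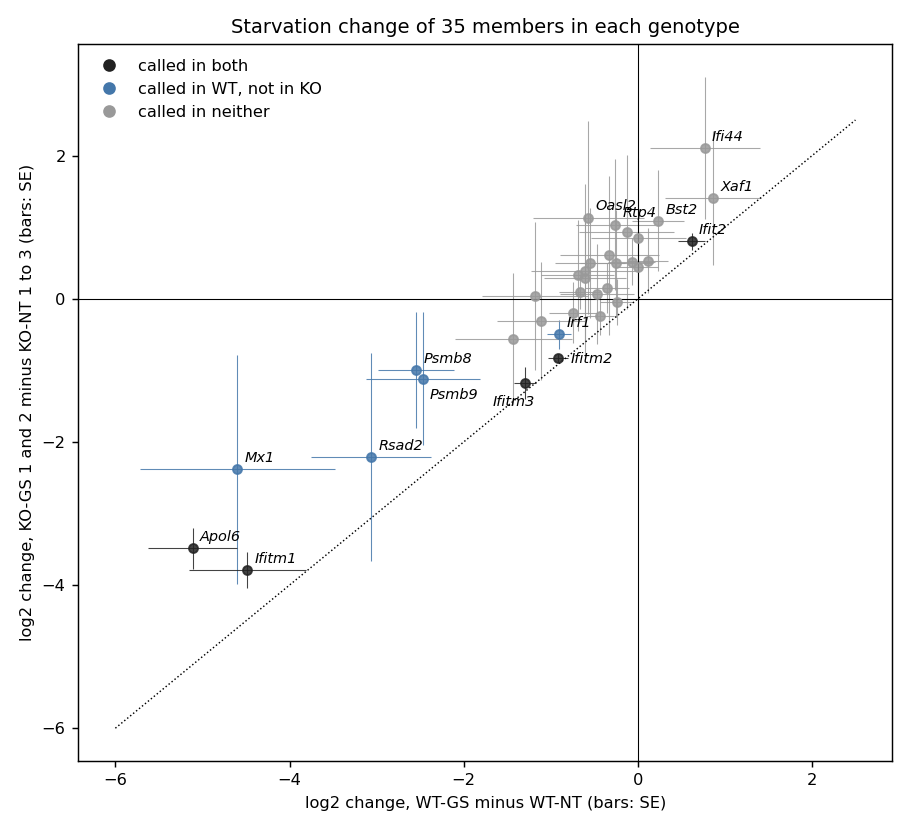
Log2 change with starvation in wild type (x axis) and in SirT7-/- without KO-NT 4 and KO-GS 3 (y axis) for the 35 genes, with SE bars; the dotted line marks equal change. Apol6, Ifitm1, Ifitm2, Ifitm3 and Ifit2 were called in both fits, and Irf1, Psmb8, Psmb9, Rsad2 and Mx1 in the wild-type fit, with wide bars for the last 4 in SirT7-/-.

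Whether starvation acted differently by genotype was tested as the SirT7-/- change minus the wild-type change, over all 14 libraries. None of the 35 genes was called, nor was any gene tested (0%). At an unadjusted p under 0.05 there were 4 of the 35 and 950 of all genes; DESeq2 called 0 of the 35 and 5 of all genes, and limma-voom 0 of either. The 4 genes were Apol6 at 4.39 (SE 1.46), Psmb8 at 2.31 (SE 0.857), Gbp2 at 1.09 (SE 0.377) and Irf1 at 0.83 (SE 0.316), each with an adjusted p of 0.68 (edgeR). For Apol6, Psmb8 and Irf1 the change as labelled was less negative in SirT7-/- than in wild type, and for Gbp2 it was 0.41 in SirT7-/- and -0.67 in wild type. Without the pair of libraries none was called either, and of these 4 only Apol6 stayed under an unadjusted p of 0.05, at 1.65 (SE 0.583, adjusted p = 1, edgeR). The median difference of the 35 was 0.79, and 0.86 without the pair, against 0.01 and 0.02 for all genes. Macrophage markers had a median change with starvation of -2.49 in wild type and -0.17 in SirT7-/- (-0.22 without the pair). Their part in this difference was not tested.

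SirT7 loss was compared in each medium; these comparisons share libraries with those above. In normal medium 0 of the 35 genes were called (0.00638% of all genes tested were). At an unadjusted p under 0.05 there were 2 of the 35, Irf1 and Gbp2, and 590 of all genes. Without KO-NT 4 there were 0 of the 35 and 1008 of all genes. With all libraries, DESeq2 called 0 of the 35 and 52 of all genes, and limma-voom 0 and 1. Irf1 was at 21.5, 22.6, 17.5 and 16.3 CPM in KO-NT 1 to 4, all below the lowest WT-NT library at 23.1 CPM. Its change was -0.37 (SE 0.138, adjusted p = 1, edgeR), and -0.28 without KO-NT 4, where again 0 of the 35 were called (0.0319% of all genes tested were). It was the 1 gene of the 35 without overlap, where 3.27% of all genes tested had none. Gbp2 had a change of -0.61 (SE 0.248). The median of the 35 was -0.19, and -0.40 without KO-NT 4, against 0.00 and -0.01 for all genes, and 26 of the 35 values were negative (34 without KO-NT 4). Summed macrophage markers, described below, ran from 544 to 1071 CPM in KO-NT and from 402 to 2791 CPM in WT-NT. All 18 markers had negative values as well, with a median of -0.655 (-0.64 without KO-NT 4). Their part in the values of the 35 genes was not tested.

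Without glucose 0 of the 35 were called between genotypes (0.00638% of all genes tested were), with 1 of the 35 and 526 of all genes at an unadjusted p under 0.05. DESeq2 called 1 of the 35 and 14 of all genes, and limma-voom 0 and 1. The gene of the 35 that DESeq2 called was Apol6, at 0.438, 0.712 and 7.73 CPM in KO-GS 1 to 3 against 0.117 to 0.189 CPM in WT-GS. The groups did not overlap (10.8% of all genes tested had none), and the change was 4.19 (SE 1.22, adjusted p = 0.812, edgeR; 0.0492, DESeq2). Without the library labelled KO-GS 3 the change was 1.86 (SE 0.461, adjusted p = 1, edgeR), and 0 of the 35 were called (0.0255% of all genes tested were). All 35 values were positive, and 32 were without KO-GS 3, with medians of 0.55 and 0.36 against 0.01 for all genes. Macrophage markers had positive values as well, 18 of 18, and their part was not tested.

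Spread within the groups was wide for these genes. The median SD of log2(CPM + 0.5) within a group was 0.618 for the 35 genes in WT-NT, against 0.209 for all genes tested, 0.414 against 0.109 in WT-GS, 0.733 against 0.208 in KO-NT and 1.07 against 0.23 in KO-GS. It was 0.631 against 0.0906 in KO-NT 1 to 3 and 0.966 against 0.153 in KO-GS 1 and 2. Oasl2 had the widest ratio above the counting limit, at 15.4 CPM in KO-GS 1 and 0.570 CPM in KO-GS 2, a ratio of 27.1. Isg15 was at 41.9 and 3.75 CPM in the same libraries, and Ifit1 at 16.4 and 1.12 CPM. By contrast, Ifitm2 lay between 72.3 and 78.1 CPM in WT-GS, and Ifit2 at 31.3 and 32.2 CPM in KO-GS 1 and 2.

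The spread followed single libraries. WT-NT 2 had the lowest level of its group in 28 of the 35 genes (32.1% of all genes), WT-GS 2 in 29 (38.5%), KO-NT 3 in 29 (24.2%) and KO-GS 2 in 33 (34.5%). Without the pair of libraries, KO-NT 3 was the lowest in 34 of the 35 genes (37.2% of all genes) and KO-GS 2, then 1 of 2 libraries, in 33 (58.0%). WT-GS 1 was the highest of its group in 31 of the 35 (38.9% of all genes). The 35 genes of a library are not independent of each other, and these counts describe the libraries.

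Macrophage markers were lowest in the same libraries but, with the groups as labelled, not always highest in the same ones. Of 19 listed markers 18 were in the table, none at 0 in all libraries, and the list includes Csf1r, the macrophage growth factor receptor, and Lyz2, lysozyme. The lowest library of each group was the same: WT-NT 2 for 17 of 18 markers, WT-GS 2 for 18, KO-NT 3 for 14 and KO-GS 2 for 18 (17 and 18 without the pair). The highest library differed in both SirT7-/- groups as labelled. In KO-NT it was KO-NT 4 for 18 of the 35 genes (44.1% of all genes) and KO-NT 1 for 13 markers. In KO-GS it was KO-GS 3 for 18 genes (36.9% of all genes) and KO-GS 1 for 17 markers. Without the pair the highest library was the same: KO-NT 1 for 30 of the 35 genes (39.9% of all genes) and 17 markers. KO-GS 1, then 1 of 2 libraries, was highest for 33 genes (58.4% of all genes) and 18 markers. The summed level of the markers was 1371, 402, 2791 and 841 CPM in WT-NT 1 to 4, 471, 19.4 and 392 CPM in WT-GS 1 to 3, 1071, 619, 544 and 948 CPM in KO-NT 1 to 4, and 1460, 147 and 886 CPM in KO-GS 1 to 3. With starvation in wild type, 2 of the 18 were called, Cd68 and Cd14, both lower (11.1%, against 15.4% lower among all genes tested). All 18 values were negative, with a median of -2.49 against -0.02 for all genes. Lymphoid markers summed to at most 0.300 CPM in any library.

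Within WT-NT the order of the libraries differed between the called genes. Apol6 was highest in WT-NT 2, at 8.98 CPM, the WT-NT library with the lowest marker sum, and lowest in WT-NT 3, at 2.67 CPM, the library with the highest. Ifitm2 and Ifitm3 were also highest in WT-NT 2 within their group. Psmb8, Psmb9 and Mx1 were highest in WT-NT 3 and lowest in WT-NT 2, as the markers were in sum. Ifitm1 was highest in WT-NT 3, at 15.3 CPM, and lowest in WT-NT 4, at 2.30 CPM. Irf1 and Ifit2 were highest in WT-NT 4, and Rsad2 in WT-NT 1. These orders are of libraries in normal medium, and their relation to the change with starvation was not tested.

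**Figure D4:**
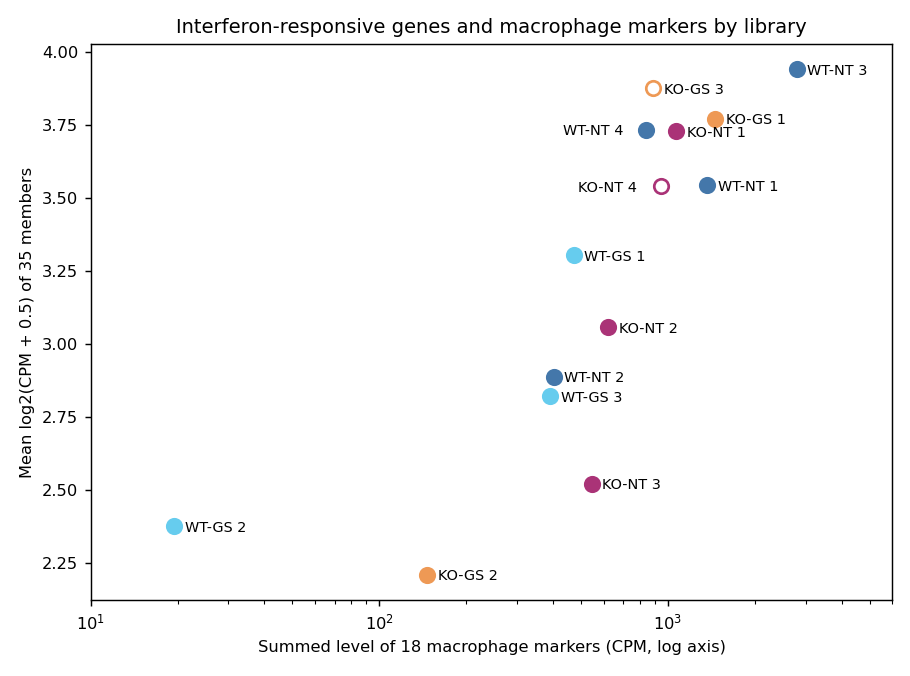
Mean log2(CPM + 0.5) of the 35 genes (y axis) against the summed level of 18 macrophage markers (x axis, CPM, log axis) in each of the 14 libraries, coloured by group, with open points for KO-NT 4 and KO-GS 3. WT-GS 2 and KO-GS 2 have the lowest values on both axes, and WT-NT 3 the highest on both.

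Upstream of the 35 genes, interferon ligand RNA was near the counting limit. Of 12 listed ligands 10 were in the table. Ifna1, Ifna2, Ifna4 and Ifng had no count in any library, Ifnb1 reached 4 counts, Ifna5 3, Ifnab 2, Ifnk 4 and Ifne 5. Ifnz, a limitin gene, had counts in all 14 libraries, up to 66, and was the 1 ligand tested; its change in wild type was -0.85 (SE 0.332, adjusted p = 0.0836, edgeR). At this depth no other ligand could be compared.

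Receptors, signalling genes and their inhibitors formed a list of 31 tested genes, ligand included, of which 5 rose and 10 fell with starvation in wild type (48.4% called, against 32.6% of all genes tested). The 4 with the smallest p were Stat3, a transcription factor of cytokine signalling, at -1.02 (SE 0.0730), Ticam1, the adaptor of endosomal RNA sensing, at 1.17 (SE 0.101), Socs3, a cytokine signalling inhibitor, at -1.83 (SE 0.165), and Tmem173 (STING), the adaptor of cytosolic DNA sensing, at -1.09 (SE 0.0997). Their adjusted p ran from 0.00017 to 0.000416 (edgeR). The others that rose were the receptor genes Ifngr1 (0.44) and Ifnar1 (0.29), Mavs, the adaptor of RIG-I and MDA5 (0.50), and Ptpn2, a phosphatase that damps cytokine signalling (0.51). In SirT7-/- cells without the pair of libraries, 4 of the 31 rose (Ticam1, Mavs, Ptpn2 and Ifngr1) and 11 fell (48.4% called, against 38.4% of all genes tested). The same 4 genes had changes of -0.97, 1.17, -1.84 and -0.99 there, and each was called. With the groups as labelled none was.

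The second list of interferon-responsive genes, 78 of 80 tested, had 4 higher and 20 lower in wild type (30.8% called, against 32.6% of all genes tested), with a median of -0.55 against -0.02 for all genes. Mov10, an RNA helicase, was at -1.19, Cxcl10, a chemokine, at -2.93, Tapbp (tapasin), at -1.21, and Tap2, the partner of Tap1, at -0.69 (adjusted p 0.000271 to 0.00424, edgeR). Cxcl10 was at 2.31, 1.49, 3.08 and 2.57 CPM in WT-NT and at 0.271, 0.284 and 0.328 CPM in WT-GS, so the groups did not overlap. Those higher were Cd274 (PD-L1) at 1.54, Ifi27l2b at 1.52, Cd47 at 0.38 and B2m, the light chain of class I molecules, at 0.36. In SirT7-/- cells without the pair 6 rose and 5 fell (Cxcl10, Ifi47, Psme1, Mov10 and Tapbp), 14.1% against 38.4% of all genes tested, with a median of 0.07 against 0.01. With the groups as labelled none of the 78 was called. The lowest library of each group was again WT-NT 2 for 66 of the 78 genes, WT-GS 2 for 56, KO-NT 3 for 63 and KO-GS 2 for 71 (70 and 75 without the pair).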

How the data were processed

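Per the submitters' processing notes, the authors used FastQC 0.11.3, Trimmomatic 0.36, HISAT2 2.1.0, SAMtools, StringTie 1.3.3 and DESeq2 1.18.1 with genome build mm9. The estimated counts they deposited, whole numbers for 24015 symbols in 14 libraries, were used as they stand (TruSeq RNA v2, per the labels' protocols). The annotation, the pairing and length of reads and the strand setting are not given in the sources used here, so overlapping and antisense genes cannot be separated. Levels were not compared between genes, apart from the within-library ratios of Psmb8 to Psmb5 and Psmb9 to Psmb6.

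Groups came from the labels. Counts were fitted with edgeR 4.0.16 (R 4.3.3; filterByExpr over all 14 libraries, TMM, robust quasi-likelihood F-test) on the groups compared, or on all 14 libraries for the difference of responses. P-values were adjusted by Benjamini-Hochberg over 15666 genes, with calls under 0.05. Standard errors (SE) were worked back from F. Total counts per library ran from 59788270 to 91607861. Alternatives were DESeq2 1.42.0, limma-voom (limma 3.58.1), RLE, scaling by library total, testing with no filter, stricter filtering (a mean count of 50 and 1 CPM throughout a group), a replicate block, a fit on all 14 libraries, and leaving out libraries. The fit was tested on simulated data with the same setting of spread for all genes and no shifts shared by genes of a library. That test does not cover genes whose spread is wide and follows single libraries, as here.

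The 35 genes, the other lists and the libraries left out were chosen with earlier results of these data known. The text may name all 35 genes, with values by library for those called; of other lists, it names up to 4 genes with the smallest p, all ligands and constitutive subunits, and all where a count is 5 or fewer. Promoters came from RefSeq (GRCm38.p6), a different build from that of the counts, and were matched by symbol.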

Additional observations from a re-analysis of the deposited data

Results flagged for a closer look

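In 4 of 70 combinations of gene and group of 4 libraries (5.7%), 1 library stood apart from the other 3 by Dixon's criterion, where chance flags about 5%. In the library labelled KO-NT 4, Ifitm1 was at 0.218 CPM (others 4.29 to 4.62), Ifitm2 at 78.8 CPM (others 129 to 136) and Apol6 at 0.349 CPM (others 6.20 to 6.44). This library lay with the starved libraries for genes outside the list too, as given above. In WT-NT 3, Xaf1 was at 40.2 CPM (others 14.2 to 17.2); the same library had the highest summed macrophage markers, and their part was not tested.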

How the results depend on the processing

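No gene called in the main fit or in an alternative had opposite signs in the 2. Values that were not called did change sign in places. The median of the 35 in SirT7-/- was 0.30 as labelled and -0.08 without KO-GS 1. Isg15 in wild type ran from -0.86 to 0.26 when leaving out each library in turn. In wild type, 10 of the 35 genes were called; leaving out each library in turn gave 6 to 14, and the replicate block 12 (Psmb9 was not called there). Apol6, Ifitm1, Ifitm2, Ifitm3, Irf1 and Psmb8 were called under every alternative run. Counting each gene under each alternative, calls in wild type were gained 15 times and lost 17 times. Leaving out KO-NT 4, KO-GS 3 and WT-NT 4 is in wild type the same fit as leaving out WT-NT 4, and both were counted. In SirT7-/-, 0 were called as labelled, 5 without KO-NT 4 and KO-GS 3 (also with WT-NT 4 left out), and 0 to 1 when leaving out each library in turn; the gene called without KO-NT 4 was Ifit2. Between genotypes without glucose, DESeq2 called 1 (Apol6). Of all genes tested, leaving out each library in turn called 2790 to 6643 in wild type (5107 with all libraries) and 0 to 2095 in SirT7-/- (0); DESeq2 called 626 in the latter, and between genotypes 52 in normal medium and 14 without glucose (1 each with edgeR). Deviations of same-numbered libraries from their group means, over all genes tested, correlated at -0.175 to 0.355 between media and -0.144 to 0.514 between genotypes. Since KO-NT 4 and KO-GS 3 enter those means, the check cannot decide whether the replicate numbers pair the samples. The block changed no other count of called genes among the 35. Over all genes it called 5847 in wild type (5107 without it) and 0 in each comparison of genotypes. With 3 or 4 libraries a group and a wide spread between them, a change that did not pass the test is not shown to be absent, and levels near 0.0502 CPM rest on a few counts.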
